A study of Homo sapiens with 82 samples.

Results

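RNA of HT29 cells treated with T0901317 for 48 h was compared with that of cells given DMSO for 48 h. The comparison rests on 8 RNA-seq libraries, 4 of each group, out of 82 samples in the series, and they were picked by the drug and the hour in their labels. HT29 is an established line of human colorectal cancer cells, so the results hold for 1 line. T0901317, a synthetic agonist of the liver X receptors (LXRs), was added at 10 µM in DMSO, the solvent that the control cells received, and the cells of both groups had been kept before treatment in medium without phenol red and with serum stripped by charcoal and dextran. Further groups of 4 libraries each serve as references: GW3965, a second LXR agonist, at 10 µM for 48 h, and T0901317 and DMSO at 24 h. Rosiglitazone, an agonist of the receptor PPARG, was given at 10 µM for 24 or 48 h. Its libraries, and those of GW3965 at 24 h, only share the fits and are not compared here. Each treatment was done in quadruplicate at each hour according to the methods, which do not say whether the 4 came from cultures grown and treated on separate occasions. The p-values thus measure the spread between libraries of a group, estimated over all groups in a fit, and this spread may be technical.

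LXRA (NR1H3) and LXRB (NR1H2) are nuclear receptors that bind oxysterols, the oxidized forms of cholesterol, and act on DNA as heterodimers with the retinoid X receptors. Their best known target genes export cholesterol from the cell, and through the transcription factor SREBF1 they also raise fatty acid synthesis. In the intestinal epithelium they are known for sending absorbed cholesterol back to the lumen or on to lipoproteins. T0901317 is also known to bind the pregnane X receptor (PXR), the farnesoid X receptor (FXR) and the ROR receptors, and genes of these receptors were therefore listed as well.

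The DMSO libraries held 32312000 to 38578000 counts and the T0901317 libraries 37646600 to 49912200. Of 51838 genes in the table, 22470 had enough reads to be tested, and the biological coefficient of variation was 0.101. All 12 listed markers of colon epithelium were tested, with a summed level of 18303 to 19439 CPM (counts scaled to 1000000 per library) in the DMSO libraries and 15566 to 17259 CPM with T0901317. Taken singly, 5 of these markers were higher and 2 lower with T0901317 at an adjusted p under 0.01, with a median log2 change of 0.08. Of 12 markers of blood, stromal, endothelial, hepatic, muscle and glial cells, 4 had enough reads to be tested, and their summed level was 12.4 to 15 CPM with DMSO and 17.8 to 21.2 CPM with T0901317. Among them CD68, a lysosomal glycoprotein best known from macrophages, was higher with T0901317 by 0.74 ± 0.10 (SE, adjusted p = 5.82e-06) on the log2 scale. Mitochondrial transcripts took 1.85% to 2.74% of the DMSO counts and 2.57% to 3.75% of the T0901317 counts, with replicate 3 lowest in both groups. Replicate 3 was also the lowest with GW3965 (2.80%) and with rosiglitazone (2.37%) at 48 h. The 20 most abundant genes took 9.17% to 9.58% of the DMSO counts and 10.8% to 11.3% of the T0901317 counts. The part of these shares in the results was not tested.

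After 48 h of T0901317, 630 genes were higher and 583 lower than with DMSO by at least 2-fold at an adjusted p under 0.01, which is 2.8% and 2.59% of the 22470 genes tested (edgeR quasi-likelihood test, Benjamini-Hochberg adjustment). At the adjusted p alone 3135 were higher (14.0%) and 3607 lower (16.1%), and these shares are the background for the gene lists below, whose members are said to rise or fall at that threshold. Scaled by library size alone there were 3447 higher and 3177 lower, so the scaling decides which direction held more genes. The libraries of both groups did not overlap in 8957 genes, 39.9% of those tested, which is the background for each gene said below not to overlap. The median size of the called changes was 1.35 on the log2 scale among higher genes and -1.34 among lower genes. Called genes of at least 4-fold numbered 95 higher and 99 lower, and those of at least 8-fold 21 and 28. The median level in DMSO was 1.18 CPM for the higher genes and 9.28 CPM for the lower genes. With T0901317 the medians were 3.15 CPM for the higher and 3.38 CPM for the lower genes. The genes were sorted by the change from DMSO, so the sorting itself sets the DMSO medians apart. Without replicate 3 of both groups the counts were 528 higher and 526 lower. The median change over all genes tested was 0.01.

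**Figure D1:**
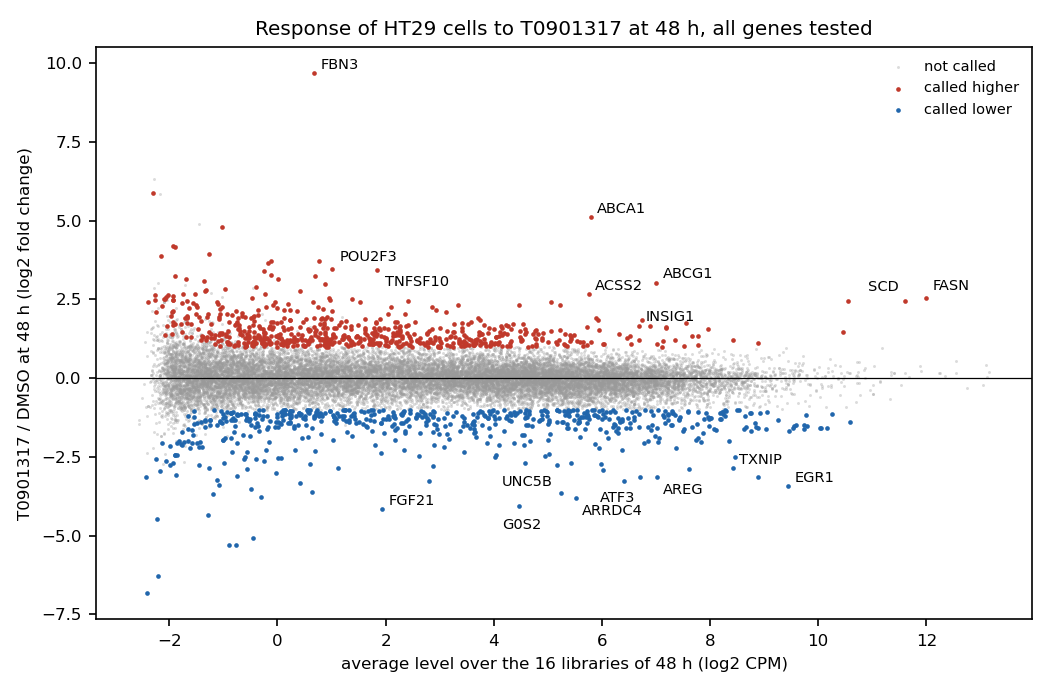
Log2 fold change of T0901317 over DMSO at 48 h against the average level of each gene in log2 CPM over the 16 libraries of 48 h, with 1 point per gene tested, 630 called higher in red, 583 called lower in blue and the rest in grey. ABCA1 lies at 5.12 and FGF21 at -4.15, and the point at the top, FBN3, is a gene with 0 counts in all DMSO libraries and in 1 T0901317 library, whose fitted fold depends on the prior count and is no measure of size.

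The LXR target genes included the largest increase of the comparison. ABCA1 read 3.17, 2.42, 1.83 and 2.12 CPM in the DMSO libraries and 75.4, 79.3, 79.1 and 96.1 CPM with T0901317, and the groups were far apart. ABCA1, the pump that hands cholesterol to lipid-poor apolipoprotein A-I, was thus higher by 5.12 ± 0.13 (SE, adjusted p = 4.06e-16) on the log2 scale, the largest rise among genes with an average of at least 1 log2 CPM. ABCG1 read 24.1, 21.1, 24.0 and 23.2 CPM in the DMSO libraries and 186, 179, 183 and 209 CPM with T0901317, again without overlap. This sterol exporter, which loads lipoprotein particles, rose by 3.04 ± 0.13 (SE, adjusted p = 1.99e-12). SREBF1, the transcription factor that turns on fatty acid synthesis, measured 608, 578, 522 and 591 CPM with DMSO and 1918, 1473, 1315 and 1706 CPM with T0901317, without overlap, for a log2 change of 1.48 ± 0.10 (SE, adjusted p = 9.97e-10). The T0901317 libraries of SREBF1 spread more widely than the DMSO libraries. Of 16 listed targets tested, 7 rose, 0 fell and 9 did not pass, with a median log2 change of 1.22 against 0.01 over all genes.

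The other LXR targets that rose were PLTP, which transfers phospholipids between lipoproteins, by 1.75, LPCAT3, which puts polyunsaturated chains into phosphatidylcholine, by 1.75, MYLIP, a ubiquitin ligase, by 1.66, and NR1H3, the gene of LXRA itself, by 1.21. NR1H2, the gene of LXRB, had a log2 change of -0.49 ± 0.06 (SE, adjusted p = 1.04e-06). APOE, a classical LXR target in macrophages, had a log2 change of 0.38 ± 0.35 (SE, adjusted p = 0.413) and did not pass, nor did SMPDL3A, a phosphodiesterase, with 0.32.

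A promoter sequence is shown for ABCA1 because it holds a known type of LXR element in the gene with the largest rise. The letters AGGTTA and CGGTCA with any 4 bases between them, a direct repeat, were searched on both strands of the RefSeq windows from 250 bases before to 50 bases after each start (build GRCh38.p14). They occur in 1 of 35116 windows (0.00285%), and that window is the one of ABCA1. The letters are those of the element known from this promoter and no general consensus, so their choice fixed that match. Capitals mark the match, which lies on the opposite strand, from 69 to 54 bases before the start.
ABCA1, chr9:104928179-104928254, minus strand: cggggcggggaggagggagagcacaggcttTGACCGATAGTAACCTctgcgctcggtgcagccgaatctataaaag

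Of 23 tested genes of fatty acid synthesis 14 rose and none fell, with a median of 0.70. FASN read 954, 998, 795 and 979.7 CPM in the DMSO libraries and 7368, 4949, 3749 and 5772 CPM with T0901317. FASN, the fatty acid synthase, was higher by 2.55 ± 0.17 (SE, adjusted p = 4.77e-10), and its T0901317 libraries ranged widely while all stayed above the highest DMSO library. SCD, the desaturase that makes oleate, measured 917, 970.4, 854 and 886 CPM with DMSO and 4829.6, 4960.0, 4532 and 5305 CPM with T0901317. Its log2 change was 2.44 ± 0.06 (SE, adjusted p = 4.06e-16), and reads of its pseudogene SCDP1, which had a log2 change of 2.33, may be shared with it. ACSS2, which makes acetyl-CoA from acetate in the cytosol, rose by 2.68 ± 0.10 (SE, adjusted p = 9.71e-14). The list also held ACSL1 (1.84) and ACSL3 (0.82), which activate fatty acids, the elongase ELOVL6 (1.52), the phosphatidate phosphatase LPIN1 (1.28), and ACACA (1.10), the carboxylase of the committed step. ACLY, which makes cytosolic acetyl-CoA from citrate, rose by 0.44, and the citrate carrier SLC25A1 by 0.93. FADS1 (-0.14), GPAM (-0.05) and ME1 (0.20) did not pass.

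Cholesterol synthesis genes were mostly higher, with 20 of 27 members of the list higher, 1 lower and a median of 0.72. INSIG1, which holds the sterol sensor SCAP in the endoplasmic reticulum, measured 45.8, 54.8, 45.4 and 50.8 CPM with DMSO and 167, 167, 136 and 157 CPM with T0901317. The groups did not overlap, and the log2 change was 1.67 ± 0.11 (SE, adjusted p = 7.73e-10). Early enzymes rose, among them HMGCS1 (1.66) and MVD (1.28), and so did late ones such as LSS (1.34), SQLE (0.80) and MSMO1 (1.73), listed in the file under its older name SC4MOL. CYP51A1 (-0.07), the lanosterol demethylase, and STARD4 (0.31) did not pass the test.

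The remaining genes among the 10 largest rises were no lipid enzymes. POU2F3, the transcription factor that specifies tuft cells, read 0.470, 0.295, 0.195 and 0.254 CPM with DMSO and 3.76, 3.83, 3.14 and 2.61 CPM with T0901317. The groups did not overlap, and it rose from a very low level by 3.46 ± 0.21 (SE, adjusted p = 1.56e-10). It met the level for naming as an average over all 16 libraries of 48 h. TNFSF10 read 0.911, 0.885, 0.928 and 0.734 CPM in the DMSO libraries and 8.59, 9.72, 9.63 and 10.0 CPM with T0901317. TNFSF10 encodes the death receptor ligand TRAIL, and its libraries were tightly grouped on both sides of a log2 change of 3.45 ± 0.18 (SE, adjusted p = 1.76e-11). TMEM37, related to subunits of calcium channels, rose by 2.52 ± 0.30 (SE, adjusted p = 1.12e-06), and POU3F1, an octamer-binding factor, by 2.47 ± 0.14 (SE, adjusted p = 1.14e-10). AL139819.1, a locus with a clone name only, rose by 2.46 ± 0.05 (SE, adjusted p = 6.12e-17).

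Of 14 tested tuft and enteroendocrine genes 4 were higher and 1 lower, with a median of 0.17. PTGS1, the constitutive cyclooxygenase of tuft cells, rose by 1.90 ± 0.10 (SE, adjusted p = 2.71e-11), TRPM5, their cation channel, by 0.89, and ALOX5, the leukotriene enzyme, by 0.74. AVIL (-0.33) and SH2D6 (-0.35), further tuft markers, did not pass, and INSM1, a factor of endocrine cells, fell by 0.68, a call that was lost without T0901317 replicate 2. In RNA of whole cultures, more cells of a type and more RNA per cell cannot be told apart.

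Genes of the ABC family other than the sterol exporters were listed separately, and 14 of 29 tested rose while 3 fell (median 0.28). ABCC2, which exports conjugates into bile, rose by 2.49 ± 0.20 (SE, adjusted p = 1.08e-08), and ABCB1, the multidrug pump, by 1.59 ± 0.34 (SE, adjusted p = 0.000915). ABCG2, which exports drugs and urate, measured 20.7, 23.2, 21 and 21.2 CPM with DMSO and 61.1, 63.7, 58.2 and 62.7 CPM with T0901317, without overlap, a change of 1.51 ± 0.09 (SE, adjusted p = 1.82e-10). ABCC6 and ABCC4 had log2 changes of 1.77 and 1.39. The members that fell were ABCF2 (-0.76) and ABCF1 (-0.20), which act in translation and are no transporters, and ABCA10 (-0.96), and ABCF1 no longer passed without T0901317 replicate 4. In the PXR list, which shares ABCC2 and ABCB1, 4 of 17 rose and 2 fell with a median of 0.08, and both calls of a fall were lost without replicate 3 of both groups. CYP3A4, the classical PXR target, had a log2 change of -0.03 ± 0.47 (SE, adjusted p = 0.967). Its DMSO libraries held 0.353, 0.325, 1.07 and 0.254 CPM, with replicate 3 apart from the others, and its T0901317 libraries 0.251, 0.491, 0.785 and 0.495 CPM. Without DMSO replicate 3 the change of CYP3A4 was 0.68 and did not pass. UGT1A6 (0.60) and UGT1A1 (0.55) rose, but they share exons, so reads cannot be assigned to either with certainty. In the FXR list 5 of 8 rose and none fell. They were NR0B2, the small heterodimer partner, by 2.04 ± 0.16 (SE, adjusted p = 4.84e-09), the ileal bile acid binding protein FABP6 by 1.72, SDC1 by 0.88, and both subunits of the basolateral bile acid transporter, SLC51B by 1.76 and SLC51A by 0.41, both matched by Ensembl ID. The count of FXR genes that rose was 3 without DMSO replicate 3 or 4 or T0901317 replicate 4, and of the fits with 1 library left out FABP6 kept its call in those without T0901317 replicate 2 or 3. FGF19, the hormone that FXR induces in the ileum, had a log2 change of 0.11 ± 0.21 (SE, adjusted p = 0.713). GW3965 at 48 h raised 5 of the 8 FXR genes over DMSO and lowered 1 (background 16.1% and 17.5%). Of the 8, 2 were higher with T0901317 than with GW3965 and 6 did not pass. Of the 17 PXR genes GW3965 raised 3 and lowered 2, and 13 did not pass between the agonists.

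Fatty acid oxidation and ketogenesis genes rose in 15 of 24 cases and fell in 2, with a median of 0.50. The kinases PDK3 (1.6) and PDK4 (1.55), which switch off pyruvate dehydrogenase, rose most, and PDK1 fell by 0.54. Without DMSO replicate 1, 3 or 4 or T0901317 replicate 1, 2 or 4, PDK1 was the 1 member that fell. CPT1A, the gate of mitochondrial fatty acid import, rose by 0.43 ± 0.05 (SE, adjusted p = 8.75e-07), and PPARA, the receptor that governs these genes, by 0.62. HADHA (0.10), the alpha subunit of the mitochondrial trifunctional protein, did not pass. Among lipid droplet and lipolysis genes 6 of 19 rose and 2 fell. FABP1, the fatty acid binding protein of enterocytes, rose by 1.69 ± 0.18 (SE, adjusted p = 4.29e-07), and G0S2, which blocks the triglyceride lipase, fell. G0S2 read 31.1, 30.3, 39.7 and 32.3 CPM in the DMSO libraries and 2.01, 1.6, 1.90 and 2.49 CPM with T0901317, without overlap. The log2 change of G0S2 was -4.05 ± 0.20 (SE, adjusted p = 8.54e-12), the second largest decrease of the comparison by the rule for naming genes. Of 18 tested enterocyte genes 9 rose and none fell (median 0.40), among them CA2 (1.52), a carbonic anhydrase, sucrase-isomaltase SI (0.99) and VIL1 (0.66), which bundles actin in microvilli.

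**Figure D2:**
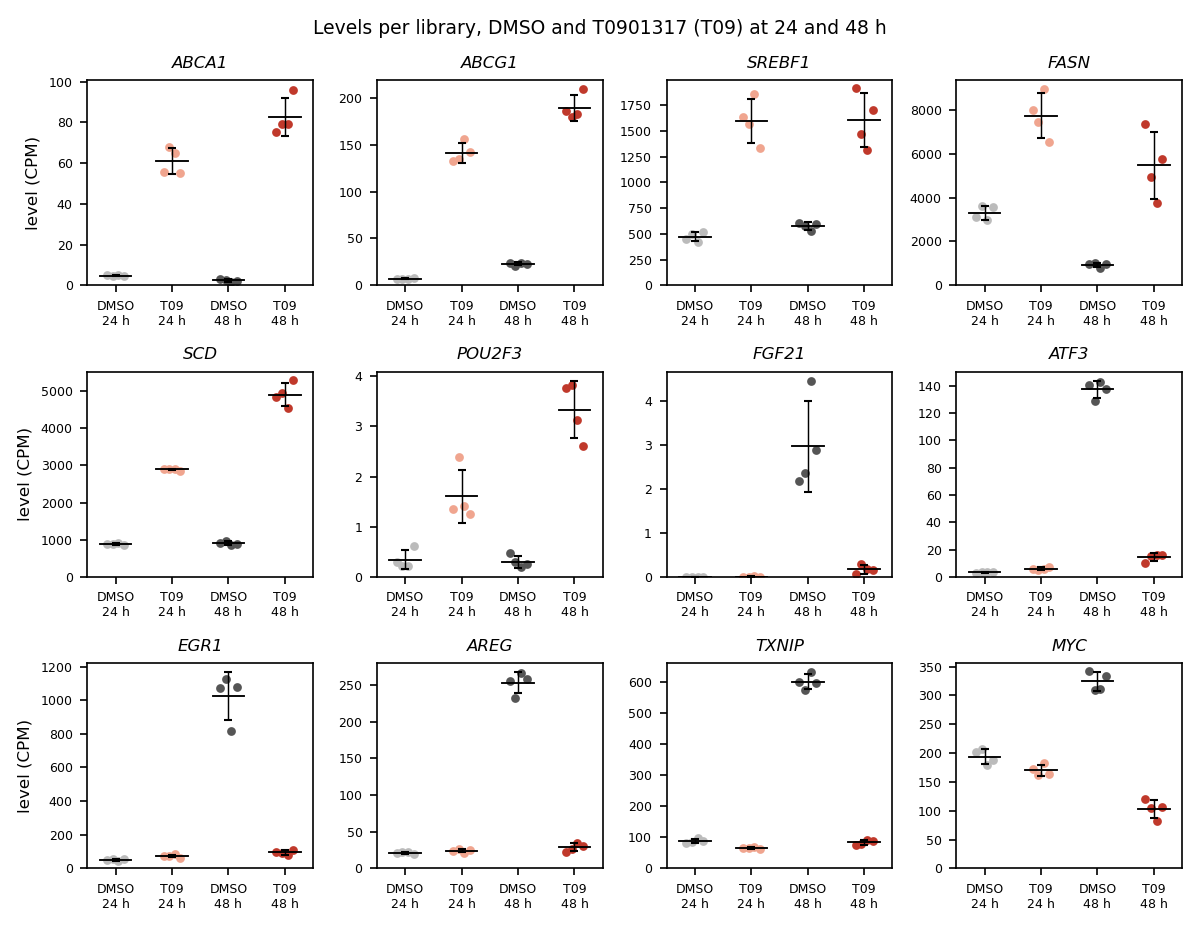
Levels in CPM of 12 genes in each library of DMSO and T0901317 (T09) at 24 and 48 h, on linear axes from 0, with 1 point per library, the mean as a line and the SD as bars (n = 4 per group). ABCA1, ABCG1, SREBF1, FASN, SCD and POU2F3 are higher with T0901317 at both times, whereas FGF21, ATF3, EGR1, AREG, TXNIP and MYC are highest in DMSO at 48 h.

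Genes that growth factors switch on were lower in most listed cases. EGR1, a zinc finger factor switched on within minutes of growth factor stimulation, measured 1073, 1127, 816 and 1079.8 CPM with DMSO and 97.7, 91.8, 78.9 and 109.9 CPM with T0901317. The groups did not overlap, and the log2 change was -3.44 ± 0.19 (SE, adjusted p = 7.56e-11). Of the 12 AP1 subunit genes tested, 11 fell and 1 rose (median -1.36). ATF3 fell most, from 140.4, 129, 143 and 138 CPM to 10.3, 15.4, 16 and 15.9 CPM without overlap, a log2 change of -3.26 ± 0.13 (SE, adjusted p = 3.31e-13). FOSL1 (-2.72), JUNB (-1.65), MAFF (-1.61), FOS (-1.53), FOSB (-1.45), JUN (-1.16), FOSL2 (-1.11) and JUND (-1.06) fell as well. The exception was BATF2, an inhibitory family member induced by interferon, which rose by 1.34 ± 0.21 (SE, adjusted p = 3.44e-05). Among immediate early genes outside AP1, 17 of 22 fell and 1 rose with a median of -0.95. EGR2 (-2.71), KLF10 (-2.29), IER3 (-1.90), KLF4 (-1.46) and IER2 (-1.43) were among them, and BTG2, an antiproliferative gene, rose by 0.47, a call that was lost with any 1 of the 8 libraries except DMSO replicate 2 left out.

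Some ligands of the epidermal growth factor receptor (EGFR) and most of the inhibitors that its signal induces fell as well. AREG, the ligand amphiregulin, read 256, 232, 266 and 258 CPM with DMSO and 22.2, 26.5, 34.9 and 30.2 CPM with T0901317, without overlap and with a log2 change of -3.15 ± 0.12 (SE, adjusted p = 3.55e-13). AREGB, a nearly identical copy annotated beside it, changed by -3.14, and reads of the pair cannot be assigned to either copy with certainty. HBEGF fell by 2.91 and EREG by 2.87, whereas EGF rose by 1.28 ± 0.35 (SE, adjusted p = 0.00618) and TGFA (-0.23) did not pass. EGF lost its call without DMSO replicate 1 or 2 or T0901317 replicate 2 or 4. Of 10 ligands and receptors 2 rose and 3 fell, and ERBB2, a receptor, was higher by 0.76 while EGFR itself had a change of -0.34 ± 0.10 (SE, adjusted p = 0.0116), which passed at -0.43 without T0901317 replicate 4. In the MAPK feedback list 16 of 22 fell and none rose (median -0.70). ERRFI1, which inhibits EGFR directly, fell by 3.15, and of the phosphatases that inactivate MAP kinases DUSP5 fell by 2.49, DUSP1 by 2.40, DUSP8 by 1.68 and DUSP6 by 1.02. SPRY4, a Sprouty inhibitor, fell by 1.28. ETV4 (-0.07) and SPHK1 (0.48) did not pass.

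The promoter windows of AREG and DUSP1 are shown because both hold TGACGTCA, the palindromic element of cyclic AMP response binding factors and ATF3. It occurs in 649 of 35116 windows (1.85%), and by gene in 10 of 276 genes called lower with a window (3.62%), in 4 of 310 called higher (1.29%) and in 3.58% of all 9939 tested genes with one. The share among genes called lower was thus near that of all tested genes. The AP1 site TGANTCA, 1 base shorter than this element, was found in 11.2% of the genes called lower, 9.35% of those called higher and 7.47% of all tested genes with a window. Capitals mark the match.
AREG, chr4:74445041-74445108, plus strand: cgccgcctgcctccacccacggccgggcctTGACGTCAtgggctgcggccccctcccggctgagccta
DUSP1, chr5:172771283-172771350, minus strand: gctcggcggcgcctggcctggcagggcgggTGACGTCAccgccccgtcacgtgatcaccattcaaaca

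MYC, the growth-promoting transcription factor, measured 343, 309, 312 and 334 CPM with DMSO and 119.9, 105, 82.1 and 106 CPM with T0901317, without overlap, a log2 change of -1.65 ± 0.10 (SE, adjusted p = 1.44e-10). Of 29 genes of the MYC network and of ribosome biogenesis, 21 fell and 1 rose (median -0.51). RRP12 (-1.28), LYAR (-1.05), NOP2 (-1.03) and NOP58 (-0.99), which process ribosomal RNA, fell, as did the polymerase I subunit POLR1A (-0.74) and nucleolin, NCL (-0.34). MXD4, a MYC antagonist, rose by 0.60 ± 0.11 (SE, adjusted p = 0.000243), whereas its relative MXD1 fell by 1.57. NPM1 (0.06), an abundant nucleolar protein, did not pass.

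Among TGF-beta and BMP pathway genes 12 of 19 fell and 4 rose (median -0.53), the latter count being 2 when any 1 of 5 libraries was left out. The inhibitor of differentiation ID1 fell by 2.01, the ligand BMP2 by 1.45 and SMAD7, the inhibitory SMAD, by 1.08. The ligands TGFB3 and BMP4 rose by 1.91 and 1.17. CDKN2B, a cell cycle inhibitor that TGF-beta induces, was not in this list but in that of cyclins and inhibitors of their kinases. It fell from 37.6, 33.6, 39.1 and 39.1 CPM to 8.22, 8.74, 7.39 and 10.0 CPM without overlap, a log2 change of -2.12 ± 0.13 (SE, adjusted p = 3.92e-10). Of 21 epithelial chemokine and NFKB feedback genes 12 fell and 1 rose (median -0.60), the latter count being 2 without DMSO replicate 4 or T0901317 replicate 3. CXCL2 fell by 2.52, IL8, the neutrophil chemokine CXCL8, by 2.13, CXCL1 by 1.68 and RELB, an NFKB subunit, by 1.39. CCL20, which draws dendritic cells and lymphocytes, read 1.73, 1.36, 1.81 and 2.00 CPM with DMSO and 0.0579, 0.0982, 0.0436 and 0 CPM with T0901317, and TNFRSF9 was at 0 in all T0901317 libraries and at 0.294, 0.177, 0.317 and 0.141 CPM with DMSO, so that neither gene overlapped between the groups. NFKBIA, the inhibitor of NFKB, rose by 0.40 ± 0.08 (SE, adjusted p = 0.000299).

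Genes of the integrated stress response, in which the kinases that sense amino acid shortage, misfolded proteins or double-stranded RNA raise translation of ATF4, were lower in 24 of 27 cases and higher in none (median -1.21). FGF21, a hormone that stressed cells secrete, measured 2.17, 2.36, 4.44 and 2.88 CPM with DMSO and 0.0579, 0.295, 0.174 and 0.158 CPM with T0901317, without overlap. At -4.15 ± 0.41 (SE, adjusted p = 1.17e-07) it had the largest decrease under the rule for naming genes, from a level of few CPM. The average level in this rule runs over all 16 libraries of 48 h, GW3965 and rosiglitazone included. GDF15, a further stress hormone, fell by 2.51, PPP1R15A, which ends the response by removing the phosphate from eIF2, by 2.22, SESN2 by 1.95, TRIB3 by 1.69 and DDIT3, the factor CHOP, by 1.38. Amino acid genes fell as well, such as the cystathionine lyase CTH (-1.81), the transporter pair SLC3A2 (-1.5) and SLC7A5 (-1.39), the serine enzymes PSPH (-1.37) and PSAT1 (-1.20), and asparagine synthetase, ASNS (-1.15). ATF4 itself, which is controlled mainly in translation, had a log2 change of -0.19 ± 0.08 (SE, adjusted p = 0.0816) and passed only without T0901317 replicate 3, at -0.28. PHGDH (-0.15), the first enzyme of serine synthesis, did not pass. INHBE, the gene of activin E, which was in no list, read 15.8, 13.7, 13.7 and 14.5 CPM with DMSO and 0.830, 1.20, 2.09 and 1.88 CPM with T0901317, without overlap and with a log2 change of -3.26 ± 0.21 (SE, adjusted p = 4.26e-10).

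The windows of FGF21, CHAC1 and ASNS are shown because they hold TGATGNAA, the composite element that CEBP and ATF4 proteins bind. It was searched on both strands, and 1270 of 35116 windows hold it (3.62%). By gene it was found in 25 of 276 genes called lower (9.06%), 8 of 310 called higher (2.58%) and 289 of 9939 tested genes with a window (2.91%). FGF21 and CHAC1 hold it on the opposite strand. In the stress response list 5 of 22 genes with a window held it. The motif was chosen after the values of these genes had been seen, so the shares are a description. Capitals mark the match.
FGF21, chr19:48755440-48755507, plus strand: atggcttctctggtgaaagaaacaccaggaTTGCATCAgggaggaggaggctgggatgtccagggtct
CHAC1, chr15:40953232-40953299, plus strand: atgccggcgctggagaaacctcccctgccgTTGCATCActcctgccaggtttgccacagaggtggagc
ASNS, chr7:97872439-97872506, minus strand: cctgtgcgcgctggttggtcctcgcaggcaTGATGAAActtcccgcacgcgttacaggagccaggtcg

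ARRDC4 and TXNIP, arrestin-like genes that respond to glucose, were also far lower. ARRDC4 read 80.8, 76.8, 90.7 and 81.1 CPM in the DMSO libraries and 5.71, 5.57, 6.02 and 6.12 CPM with T0901317. TXNIP read 601, 574, 634 and 597 CPM in the DMSO libraries and 74.6, 78.1, 92.7 and 89.7 CPM with T0901317. ARRDC4 fell by 3.81 ± 0.12 (SE, adjusted p = 2.37e-14) and TXNIP, which binds thioredoxin and lowers glucose uptake, by 2.84 ± 0.11 (SE, adjusted p = 1.69e-13). All T0901317 libraries lay below all DMSO libraries for both. They belong to the list of glycolysis and hypoxia genes, in which 12 of 30 rose and 6 fell (median 0.19). Hexokinase HK2 (-1.16), the glucose transporter SLC2A1 (-0.79) and VEGFA (-1.17) fell, and PFKFB4 (1.18), ENO2 (1.17) and ALDOC (1.02) rose. UNC5B, a netrin receptor in no list, fell from 51.8, 41.2, 53.2 and 51.4 CPM to 2.84, 2.33, 4.42 and 6.16 CPM without overlap, a log2 change of -3.64 ± 0.37 (SE, adjusted p = 1.61e-07).

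The window of TXNIP is shown because it holds the element of the glucose-sensing factors MLXIP and MLXIPL, searched on both strands as CACGNG repeated after any 5 bases. It was found in 20 of 35116 windows (0.057%), in 1 of 276 genes called lower, in 0 of 310 called higher and in 14 of 9939 tested genes with a window. The pattern was chosen with the values of TXNIP known, so its match is a description. Capitals mark the match.
TXNIP, chr1:145996621-145996697, minus strand: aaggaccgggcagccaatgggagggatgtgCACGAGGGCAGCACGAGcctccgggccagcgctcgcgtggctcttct

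Cell cycle genes moved in both directions. Of 30 DNA replication genes 10 rose and 3 fell (median 0.29), and of 22 mitotic genes 5 rose and 5 fell (median -0.02), where 14.0% of all genes tested rose and 16.1% fell. With any 1 of the 8 libraries except DMSO replicate 2 left out, the count of replication genes that rose was 3 to 6, and without replicate 3 of both groups it was 2. The count of mitotic genes that rose was 2 without DMSO replicate 3 or 4 or replicate 3 of both groups, and 3 without T0901317 replicate 1 or 2. GINS1, a subunit of the replicative helicase, rose by 1.13 ± 0.13 (SE, adjusted p = 6.41e-07), and PCNA, the polymerase clamp, by 0.82, while CDC6, which loads the helicase, fell by 0.74. In mitosis TPX2 (-0.55) and AURKA (-0.35) fell and MKI67, the proliferation marker, had a log2 change of -0.19 ± 0.07 (SE, adjusted p = 0.0268). Among cyclins and inhibitors of their kinases 3 of 26 rose and 9 fell. The share of rises, 11.5%, was below the 14.0% of all genes tested, and that of falls was 34.6%. Cyclin E1, CCNE1, rose by 0.77, and CDKN1A, the inhibitor p21, fell by 0.82, as did CDKN2B, whose larger change is given above.

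In the goblet and secretory list 3 of 21 rose and 7 fell (median -0.17), the share of rises, 14.3%, being near the 14.0% of all genes tested. TFF1, a trefoil peptide, fell by 2.18 ± 0.38 (SE, adjusted p = 0.00011), and the mucins MUC5AC and MUC2 by 1.08 and 0.78. ATOH1 (-0.13) and SPDEF (-0.18), factors that specify secretory cells, did not pass. Of the Wnt list 6 of 18 rose and 5 fell. LGR5 and ASCL2, which mark crypt stem cells, rose by 1.40 and 1.02, AXIN2, a standard readout of Wnt signaling, by 0.48, and DKK1, a secreted Wnt antagonist, fell by 2.11 ± 0.10 (SE, adjusted p = 5.05e-12). Of 26 lineage factors 4 rose and 10 fell, the share of rises, 15.4%, being near 14.0% as well. CDX1 and CDX2, the homeobox factors of intestinal identity, rose by 0.85 and 0.51, and FOXA3 (-1.45), HES1 (-1.17) and KLF5 (-0.88) fell. HNF4A (-0.19) did not pass.

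Among 28 tested genes of nuclear receptors 5 rose and 10 fell (median -0.11), the share of rises being near the background. THRA rose by 0.43, and NR1D1 (-1.18), THRB (-1.09), PPARD (-0.74), RARA (-0.73) and PPARG (-0.71) fell. In the list of clock and ROR target genes 2 of 19 rose and 8 fell (median -0.33). The share of rises, 10.5%, was below the 14.0% of all genes tested. DBP, an output factor of the clock, rose by 1.80 ± 0.12 (SE, adjusted p = 1e-09), whereas NFIL3, its antagonist at the same DNA sites, fell by 1.48 ± 0.10 (SE, adjusted p = 1.02e-09) and PER2 by 1.32. ARNTL (0.08), CRY2 (-0.07) and RORA (-0.33) did not pass. With GW3965 at 48 h, 2 of the 19 clock and ROR target genes rose over DMSO and 9 fell.

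Genes of protein folding in the endoplasmic reticulum were higher in 11 of 20 cases and lower in 2 (median 0.31). Calreticulin, CALR, rose by 1.21 ± 0.12 (SE, adjusted p = 1.14e-07), SDF2L1 by 1.15, CRELD2 by 0.90 and PDIA4, a disulfide isomerase, by 0.72. HSPA5, the main chaperone, had a log2 change of 0.08 ± 0.09 (SE, adjusted p = 0.522), and HERPUD1 (-0.42) and XBP1 (-0.43) fell. Of 25 antioxidant genes 12 rose and 5 fell (median 0.21). PGD (0.72), which makes NADPH, NQO1 (0.66) and the oxidase partners NOXO1 (0.92) and NOXA1 (0.81) rose. OSGIN1 (-1.40), SRXN1 (-1.06), thioredoxin reductase TXNRD1 (-0.88) and the cystine carrier SLC7A11 (-0.82) fell. GCLC (-0.53) and GCLM (-0.07), the enzyme pair that starts glutathione synthesis, did not pass.

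**Figure D3:**
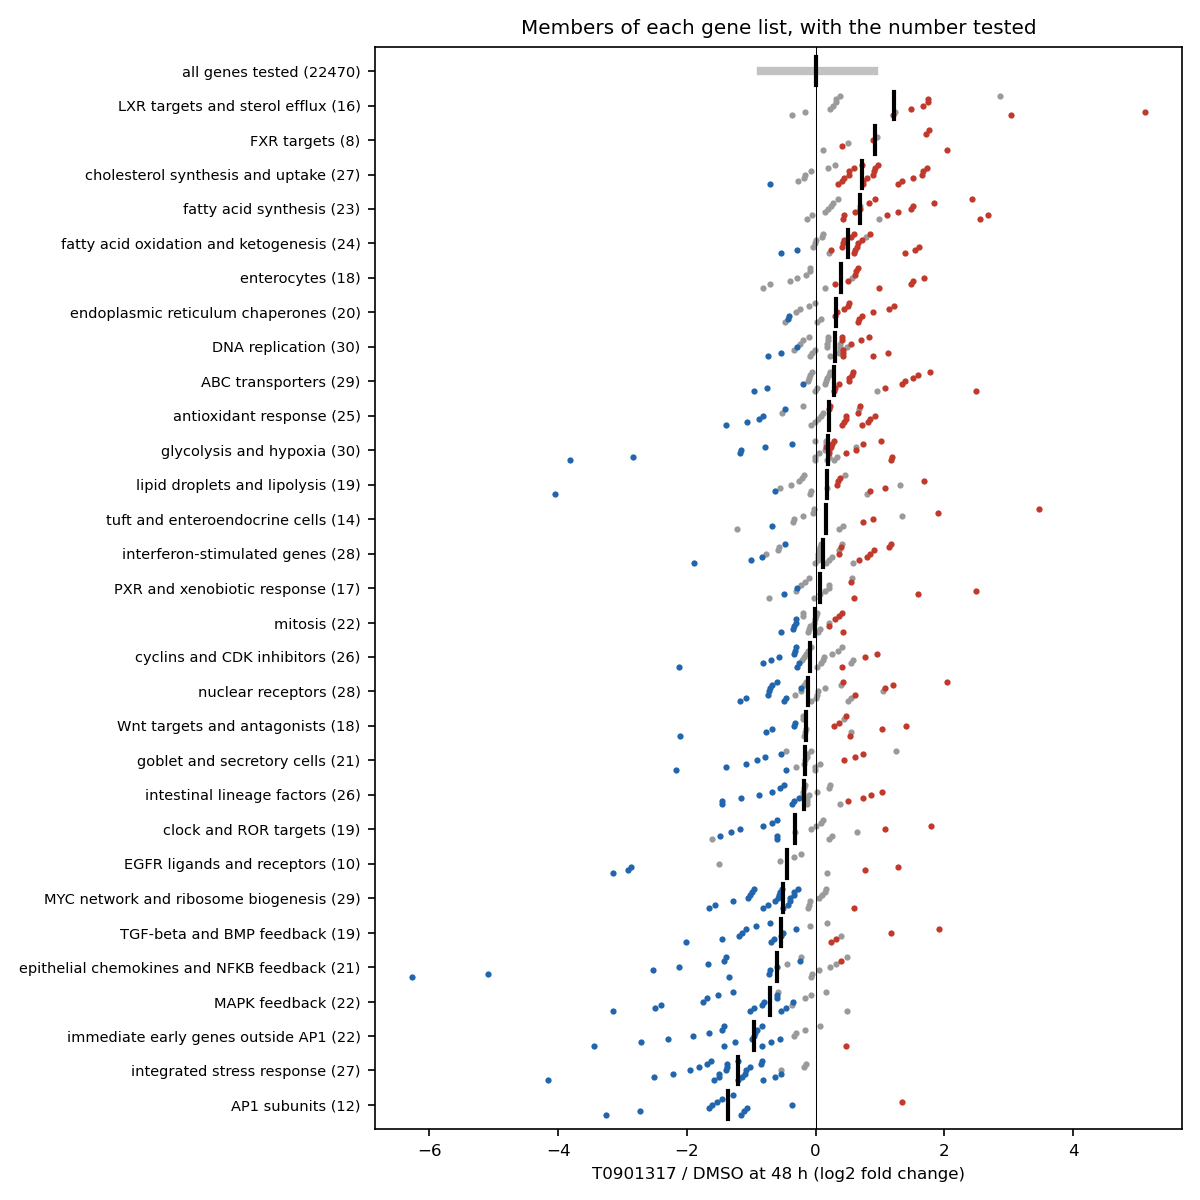
Log2 fold change of T0901317 over DMSO at 48 h for the members of 30 gene lists, with 1 point per tested member, red and blue for those higher and lower at an adjusted p under 0.01, grey for the others, and a black bar at the median. Lists run from AP1 subunits (median -1.36) at the bottom to LXR targets (median 1.22) at the top, and the grey bar spans the 5th to 95th percentile of all 22470 genes, whose median is 0.01.

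The response at 48 h was also set against that at 24 h by an interaction term over the 32 RNA libraries, each hour having its own DMSO group. At 24 h 58 genes were higher and 2 lower by at least 2-fold in this fit (0.251% and 0.00864% of 23140). The response of 369 genes was more positive at 48 h by at least 2-fold and that of 578 more negative (1.59% and 2.5%). Scaled by library size alone, which moved the median of all genes from 0.03 to 0.11, these numbers were 489 and 475. The DMSO libraries themselves differed between the times, with 1177 genes higher and 797 lower at 48 h (5.09% and 3.44%). The DMSO libraries of 48 h enter both the interaction and the comparison of DMSO between the hours, but not the contrast at 24 h. Hours in culture, harvest and the separate tables of the time points cannot be told apart.

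The integrated stress response genes were on the other side of DMSO at 24 h. At that time 16 of 27 were higher with T0901317 and none lower (median 0.60, background 1.15% higher and 0.0908% lower over all genes), and for 24 the response was more negative at 48 h (background 9.95%). In the DMSO libraries 25 of the 27 were higher at 48 h than at 24 h (background 19.7%). CHAC1, a glutathione-degrading enzyme of this response, shows the order of the groups. Its level was 4.78 ± 0.551 CPM (SD, n = 4) with DMSO and 25.3 ± 1.88 CPM with T0901317 at 24 h, and 169 ± 11.0 CPM with DMSO and 56.8 ± 5.75 CPM with T0901317 at 48 h. Its response was thus 2.40 ± 0.12 (SE, adjusted p = 3.54e-16) at 24 h, and the interaction was -3.97 ± 0.16 (SE, adjusted p = 8.72e-19). ASNS stood at 31.5 ± 1.94, 96.2 ± 6.77, 385 ± 28.5 and 174 ± 37.8 CPM in the same order, and TRIB3 at 88.8 ± 6.13, 178 ± 5.65, 926 ± 44.5 and 287 ± 44.8 CPM. For all 3 genes the mean level with T0901317 was higher at 48 h than at 24 h, and the level in DMSO was highest at 48 h. FGF21 had 0 counts in all DMSO libraries of 24 h and in 3 of 4 T0901317 libraries of 24 h, and its interaction did not pass (adjusted p = 0.203).

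**Figure D4:**
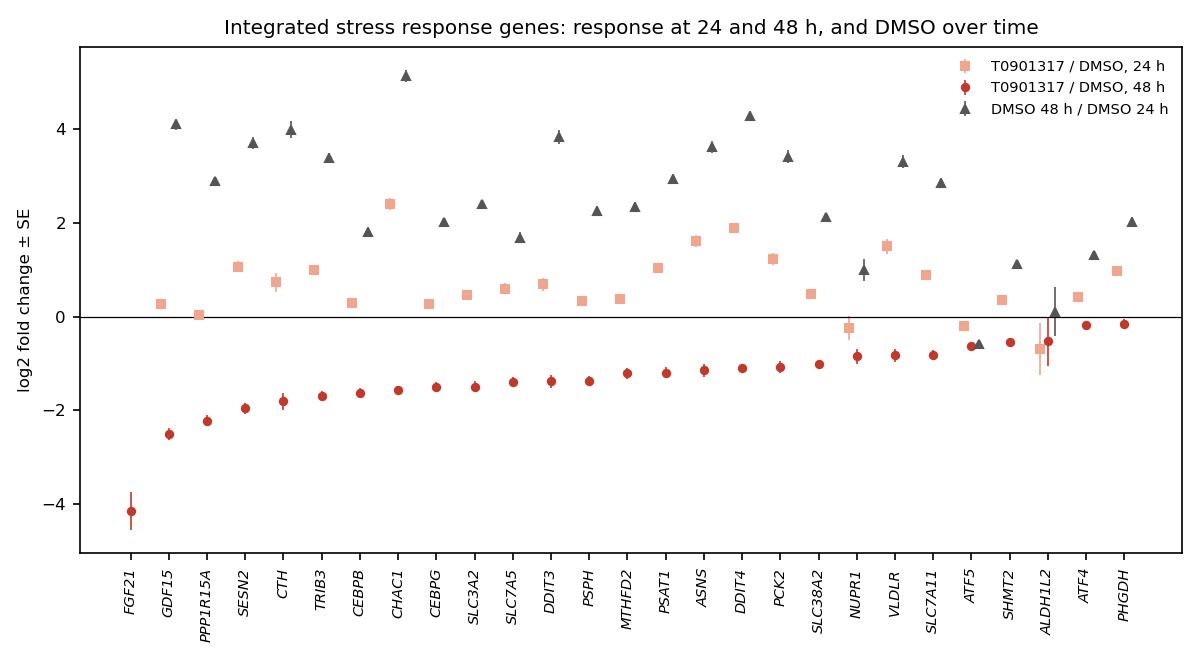
Log2 fold changes with SE of the 27 tested integrated stress response genes, ordered by the response at 48 h, for T0901317 over DMSO at 24 h, for T0901317 over DMSO at 48 h, and for DMSO at 48 h over DMSO at 24 h. FGF21 is drawn at 48 h only, since its DMSO libraries of 24 h were at 0. The responses at 48 h lie below 0 for all 27, and 25 of the genes pass the test as higher in DMSO at 48 h than at 24 h.

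Genes that growth factors switch on also rose with time in DMSO, 11 of 12 AP1 subunits, 17 of 22 immediate early genes and 16 of 22 MAPK feedback genes (background 19.7%). At 24 h, 2, 1 and 0 of them were higher with T0901317 and 0, 1 and 0 lower (background 1.15% and 0.0908%). EGR1 stood at 51.8 ± 5.64 CPM with DMSO and 73.6 ± 8.11 CPM with T0901317 at 24 h, and at 1024 ± 141 and 94.6 ± 12.9 CPM at 48 h, so that the level in DMSO at 48 h was far above the other groups. AREG followed the same order, with 21.1 ± 1.27, 24.0 ± 2.26, 253 ± 14.4 and 28.5 ± 5.39 CPM. MYC differed from them, since its level with T0901317 at 48 h, 103 ± 15.7 CPM, was also below both groups of 24 h, at 194 ± 12.5 and 170.0 ± 9.26 CPM.

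The 5 most negative changes of response among genes with an average of at least 1 log2 CPM were those of INHBE (-5.01), G0S2 (-4.96), PRSS1 (-4.66), SLC6A9 (-4.19) and ATF3 (-4.05). SLC6A9, a glycine transporter, was higher with T0901317 at 24 h by 1.98 ± 0.30 (SE, adjusted p = 4.56e-05) and changed at 48 h by -2.21 ± 0.19 (SE, adjusted p = 2.81e-08). Its level in DMSO went from 1.21 ± 0.172 to 76.4 ± 8.47 CPM, and with T0901317 from 4.78 ± 0.635 to 16.5 ± 4.73 CPM. PRSS1, cationic trypsinogen, belongs to a family of near-identical genes, and its reads may be shared with them. The 5 most positive changes were those of TNFSF10 (2.46), TMEM37 (2.12), SOSTDC1 (1.95), a secreted BMP and Wnt antagonist, MYB (1.93), a progenitor factor, and BTN3A3 (1.93), a butyrophilin. MYB went in DMSO from 43.3 ± 2.87 to 10.8 ± 0.918 CPM, whereas with T0901317 it measured 36.1 ± 2.70 and 34.2 ± 2.73 CPM.

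The LXR targets were already higher at 24 h in 7 of 16 cases, fatty acid synthesis genes in 9 of 23 and cholesterol synthesis genes in 1 of 27. The response of ABCA1 was larger at 48 h by 1.42 ± 0.16 (SE, adjusted p = 2.5e-08) and that of ABCG1 smaller, with an interaction of -1.31 ± 0.16 (SE, adjusted p = 1.16e-07) and a rise in DMSO from 6.97 ± 0.635 to 23.1 ± 1.39 CPM. SREBF1 had an interaction of -0.28 ± 0.17 (SE, adjusted p = 0.258), which did not pass, with a 95% interval of -0.61 to 0.06. For cholesterol synthesis 17 of 27 responses were more positive at 48 h (background 7.49%). In DMSO 17 of these genes were lower at 48 h than at 24 h (background 18.9%). INSIG1 stood at 151 ± 5.93 CPM with DMSO and 193 ± 10.6 CPM with T0901317 at 24 h, and at 49.2 ± 4.48 and 157 ± 14.9 CPM at 48 h. FASN went in DMSO from 3303 ± 327 to 932 ± 92.9 CPM, and with T0901317 it measured 7734 ± 1006 and 5459.8 ± 1519 CPM, so that its larger fold change at 48 h came with a lower treated level.

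T0901317 was compared directly with GW3965, the other LXR agonist, at the same dose and at 48 h. The test contrasts the agonist groups only, but within the shared fit of 16 libraries, which holds the DMSO libraries too. In it 55 genes were higher and 49 lower with T0901317 by at least 2-fold (0.245% and 0.218% of 22470), and 747 and 1131 at the adjusted p alone (3.32% and 5.03%). Scaled by library size alone, the latter split turned to 1566 higher and 733 lower, and the 2-fold split to 67 and 36, so the balance of directions depends on the scaling. Without replicate 3 of both agonists the 2-fold counts were 41 and 25, and without replicate 1 of T0901317 they were 49 and 79. With only the libraries of both agonists in the fit they were 66 and 60.

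Of the LXR targets, 6 of 16 were lower with T0901317 than with GW3965 and none was higher (median -0.35). ABCA1 measured 75.4, 79.3, 79.1 and 96.1 CPM with T0901317 and 134, 121, 141 and 123 CPM with GW3965, a difference of -0.65 ± 0.10 (SE, adjusted p = 0.000197). SREBF1 differed by -0.68 ± 0.10 (SE, adjusted p = 0.000191). ABCG1 (-0.35, 95% interval -0.58 to -0.11) and SCD (-0.13, -0.25 to -0.02) did not pass. Integrated stress response genes did not pass in 23 of 27 cases, and 4 were lower with T0901317. For ATF3 the difference was -0.12 with a 95% interval of -0.36 to 0.12.

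Interferon-stimulated genes differed between the agonists. Of 28 tested 13 were higher with T0901317 than with GW3965 and none lower, with a median difference of 0.67 (background 3.32% higher). Against DMSO, T0901317 raised 8 and lowered 4 of them (median 0.12), and GW3965 raised 3 and lowered 14 (median -0.55, background 16.1% and 17.5%), and both comparisons use the same DMSO libraries. OAS3 (1.18), OAS1 (1.14), STAT2 (0.90) and MX1 (0.85), genes of antiviral defence and of interferon signaling, rose over DMSO with T0901317. HERC5 (-1.90), OASL (-1.0) and IFIT2 (-0.83) fell. The share of falls with T0901317, 14.3%, was near the 16.1% of all genes tested. MX1 measured 2.59, 2.98, 2.51 and 3.36 CPM with DMSO, 5.83, 5.06, 4.71 and 5.01 CPM with T0901317 and 3.30, 1.84, 3.39 and 2.85 CPM with GW3965, a difference between agonists of 0.85 ± 0.18 (SE, adjusted p = 0.00295). For IFIT1 the levels were 2.00, 2.74, 2.03 and 2.09 CPM with DMSO, 1.78, 0.834, 1.83 and 1.43 CPM with T0901317 and 0.598, 0.406, 0.729 and 0.390 CPM with GW3965. All T0901317 libraries of IFIT1 lay between those of the other groups, and the agonists differed by 1.47 ± 0.28 (SE, adjusted p = 0.0013).

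The 5 genes furthest above GW3965 were RARRES3, TNFSF10, UBA7, FLYWCH2 and DDX60. RARRES3, a growth inhibitor with phospholipase activity, measured 6.11, 5.16, 6.22 and 3.98 CPM with DMSO, 7.84, 8.52, 9.35 and 7.23 CPM with T0901317 and 2.24, 2.14, 1.93 and 2.20 CPM with GW3965. The agonists thus lay on opposite sides of DMSO and differed by 1.95 ± 0.13 (SE, adjusted p = 2.82e-08). TNFSF10 read 2.63, 2.87, 3.02 and 2.38 CPM with GW3965, which was above DMSO and below T0901317, for a difference of 1.81 ± 0.15 (SE, adjusted p = 4.5e-07). UBA7, the activating enzyme of a ubiquitin-like protein that interferon induces, differed by 1.70 ± 0.22 (SE, adjusted p = 6.92e-05), FLYWCH2 by 1.61 and DDX60, an antiviral helicase, by 1.6. For FLYWCH2 and DDX60 the T0901317 level did not pass the test against DMSO, with log2 changes of 0.35 and -0.21. ABCG2 read 22.5, 23.5, 19.0 and 24.9 CPM with GW3965, a log2 change over DMSO of 0.06 ± 0.09 (SE, adjusted p = 0.643) that did not pass, and was higher with T0901317 by 1.45 ± 0.09 (SE, adjusted p = 9.03e-09). CA2 likewise differed by 1.45.

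ANGPTL4, SLC38A4, FCGBP and MIR663 were among the 5 furthest below GW3965. ANGPTL4, an inhibitor of lipoprotein lipase and a standard target of the PPAR receptors, measured 0.323, 0.148, 0.293 and 0.226 CPM with DMSO, 0.888, 0.270, 0.262 and 0.990 CPM with T0901317 and 3.63, 3.14, 3.56 and 3.82 CPM with GW3965. Its T0901317 libraries overlapped the DMSO libraries, and its change over DMSO of 1.31 ± 0.44 (SE, adjusted p = 0.023) did not pass with all libraries, but did without T0901317 replicate 2 or 3 and with DESeq2. The agonists differed by -2.50 ± 0.27 (SE, adjusted p = 1.26e-05). SLC38A4, an amino acid transporter, differed by -2.39 ± 0.11 (SE, adjusted p = 9.83e-11), and its rise over DMSO of 0.64 was lost without DMSO replicate 3. FCGBP, a mucus protein, fell with T0901317 and had 314, 304, 368 and 229 CPM with GW3965, a difference of -1.54 ± 0.14 (SE, adjusted p = 1.71e-06). The locus MIR663, a microRNA gene, differed by -1.52.

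**Figure D5:**
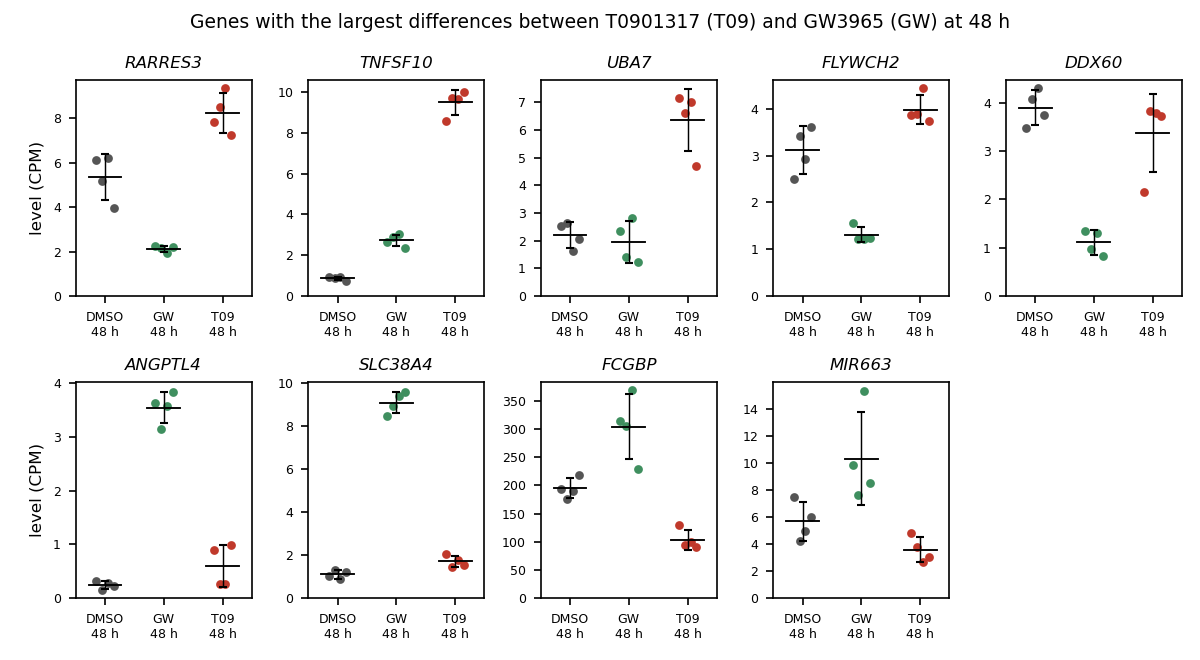
Levels in CPM at 48 h of the 5 genes furthest above and 4 of the 5 furthest below GW3965 (GW) with T0901317 (T09), on linear axes from 0, with 1 point per library, the mean as a line and the SD as bars (n = 4 per group). RARRES3 and FLYWCH2 are below DMSO with GW3965 and not with T0901317, and ANGPTL4 and SLC38A4 are highest with GW3965.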

How the data were processed

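Counts of 32 RNA-seq libraries of HT29 cells were used, and the T0901317 and DMSO libraries of 48 h were the 8 compared here. Per the labels and the methods, the authors isolated mRNA, fragmented its cDNA with Nextera transposases, sequenced from both ends and compared genes with DESeq. The authors deposited raw counts, whole numbers for each Ensembl gene, with no normalization. The submitters' processing notes name TopHat, Cufflinks and hg19 without versions, and neither counting program nor strand setting is given in the sources used here, so reads of a gene and its antisense partner cannot be told apart. Peak files of the series were not used here, since none came from cells given T0901317.

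All 16 libraries of 48 h (DMSO, GW3965, T0901317 and rosiglitazone) were fitted together in edgeR 4.0.16 (R 4.3.3) after filterByExpr and TMM scaling, with 1 coefficient per group. Tests were the quasi-likelihood F-test of edgeR, with p-values adjusted after Benjamini and Hochberg over the whole table. Calls needed an adjusted p under 0.01 with a change of 2-fold or more. Fold changes are log2, standard errors are the fold change divided by the root of F, and 95% intervals are 1.96 standard errors on each side. The change from 24 to 48 h was an interaction term over the 32 libraries, in a fit which also gave the CPM of every library. Genes were named as list members or as the 10 largest increases and decreases, the 5 largest changes of response and the 5 largest differences between agonists in each direction. Genes named by size needed an average of at least 1 log2 CPM over all 16 libraries of 48 h, and exceptions are said to be so. Some genes of these lists are not reported here. The 32 gene lists, the members and the motifs were chosen with earlier results of these data known, so list counts are descriptions, given beside the same over all genes. Of 754 list entries 745 matched by symbol and 8 by Ensembl ID. Promoters came from RefSeq (GRCh38.p14) by symbol. The scripts were tested on simulated data. Alternatives were DESeq2 1.42.0, other scaling, filters and fold limits, a replicate block, fewer libraries in the fit and single libraries left out. Plots were drawn with matplotlib 3.10.9 in Python 3.11.15 with pandas 2.3.3 and numpy 2.4.6.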

Additional observations from a re-analysis of the deposited data

Results flagged for a closer look

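Among 235 named genes, 1 of 4 libraries lay far from the other 3 by Dixon's ratio in 23 of 470 groups of libraries (4.89%), and chance gives about 1 in 20. In the DMSO libraries of 48 h these were CHAC1 in replicate 3 (153 CPM against 172 to 176), CST1 in replicate 1 (0.411 CPM against 0.0282 to 0.0732), CYP3A4 in replicate 3 (1.07 CPM against 0.254 to 0.353), FOSB in replicate 3 (13.7 CPM against 12.4 to 12.5), IFIT1 in replicate 2 (2.74 CPM against 2.00 to 2.09), MOGAT2 in replicate 1 (0.118 CPM against all 0), NFIL3 in replicate 3 (18.3 CPM against 17.0 to 17.2), NOXA1 in replicate 2 (9.44 CPM against 8.44 to 8.58), OASL in replicate 2 (7.20 CPM against 9.97 to 10.3), POLR1A in replicate 1 (105 CPM against 95.6 to 97.2), RELB in replicate 2 (42.4 CPM against 45.7 to 46.3), SLC2A4 in replicate 1 (0.147 CPM against all 0) and UNC5B in replicate 2 (41.2 CPM against 51.4 to 53.2). In the T0901317 libraries they were ACACA in replicate 3 (574 CPM against 644 to 648), ASCL2 in replicate 1 (1.76 CPM against 1.22 to 1.31), ATF3 in replicate 1 (10.3 CPM against 15.4 to 16), CCND1 in replicate 1 (94.7 CPM against 84.9 to 86.4), DDX60 in replicate 1 (2.16 CPM against 3.72 to 3.83), ID1 in replicate 3 (49.8 CPM against 38.6 to 39.9), NR0B2 in replicate 4 (11.1 CPM against 9.50 to 9.63), POU3F1 in replicate 1 (7.06 CPM against 5.47 to 5.52), RORA in replicate 4 (1.03 CPM against 0.908 to 0.926) and STAT2 in replicate 2 (30.5 CPM against 26.6 to 27.1).

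The response to T0901317 differed between 24 and 48 h, by the interaction test, in each of the 10 genes named for it. It was more positive at 48 h by 2.46 on the log2 scale for TNFSF10, 2.12 for TMEM37, 1.95 for SOSTDC1, 1.93 for MYB and 1.93 for BTN3A3. The change of response was -5.01 for INHBE, -4.96 for G0S2, -4.66 for PRSS1, -4.19 for SLC6A9 and -4.05 for ATF3. The DMSO libraries of these genes also differed between the hours, with log2 differences from -2.01 to 7.55, and their part in the interaction was not tested.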

How the results depend on the processing

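The counts against DMSO at 48 h were 362 higher and 425 lower when tested against a fold change of 1.5, 1570 higher and 1636 lower at a fold change of at least 1.5, and 336 higher and 378 lower among genes with an average of at least 1 log2 CPM, fewer genes being tested in the last. The same settings gave 123 higher and 380 lower, 1046 higher and 1385 lower and 245 higher and 456 lower for the change from 24 to 48 h. For T0901317 against GW3965 they gave 11 higher and 9 lower, 166 higher and 299 lower and 25 higher and 35 lower. DESeq2 gave 667 higher and 584 lower against DMSO, 366 higher and 569 lower for the change and 41 higher and 49 lower against GW3965. Over fits that each left out 1 library, the ranges were 538 to 610 higher and 557 to 620 lower, 313 to 394 and 548 to 610, and 41 to 49 and 36 to 79, and the highest of the last, 79, came without T0901317 replicate 1. Without replicate 3 of both groups, a choice made after the data were seen, the counts were 528 higher and 526 lower against DMSO and 41 higher and 25 lower against GW3965. The cause of these differences was not tested.

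Same-numbered libraries had correlations of -0.02 to 0.30 in their deviations from the group means, the highest between replicate 3 of T0901317 and of DMSO. For differently numbered libraries of T0901317 and DMSO they were -0.29 to 0.12. Not every same-numbered pair was above 0.1, so the numbers were not taken to pair the libraries. With the replicate number as a block the counts were 613 higher and 568 lower against DMSO, 357 higher and 559 lower for the change and 53 higher and 53 lower against GW3965.

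Of the values of single genes against DMSO, 1984 of 2081 kept direction and side of the threshold under the other settings and 1846 of 1880 with 1 library left out. CYP3A4, which did not pass, turned positive with library size alone (0.00807), the replicate block (0.0153), DESeq2 (0.00231), and without DMSO replicate 3 (0.683), T0901317 replicate 1 (0.196) or replicate 3 of both (0.392). With each library left out in turn, its change ranged from -0.327 to 0.683. The median of the Wnt list was -0.15 and turned to 0.00349 without T0901317 replicate 3, and its lowest value with 1 library left out was -0.218. Genes near 0 CPM in one group rest on few counts, so their fold changes are imprecise at this depth.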

Other observations

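Some genes below the level required for naming moved far, and the following were chosen after their values were seen. PCK1, the gluconeogenic carboxykinase, read 0.118, 0, 0.195 and 0.0565 CPM with DMSO and 1.29, 1.52, 1.44 and 1.03 CPM with T0901317, a log2 change of 3.73 ± 0.37 (SE, adjusted p = 1.33e-07). MOGAT2, which rebuilds triglycerides in enterocytes, read 0.118, 0, 0 and 0 CPM with DMSO and 0.598, 0.466, 0.545 and 0.297 CPM with T0901317. CST1, a secreted cystatin, read 0.411, 0.0590, 0.0732 and 0.0282 CPM with DMSO and 1.72, 2.04, 1.57 and 1.82 CPM with T0901317, a log2 change of 3.65 ± 0.43 (SE, adjusted p = 1.24e-06). RNASE1, a secreted ribonuclease, read 0.118, 0.236, 0.0732 and 0.141 CPM with DMSO and 1.14, 1.45, 1.35 and 1.56 CPM with T0901317, a log2 change of 3.28 ± 0.32 (SE, adjusted p = 1.34e-07), and none of these genes overlapped between the groups, as was so for 39.9% of all genes tested.

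STOM, the membrane protein stomatin, read 0.500, 0.325, 0.683 and 0.424 CPM with DMSO and 0, 0.0245, 0.0654 and 0 CPM with T0901317. NLRP12, an inflammasome sensor of myeloid cells, had 0 counts in all T0901317 libraries and 0.470, 0.295, 0.146 and 0.480 CPM with DMSO. FBN3, a fibrillin, had 0 counts in all DMSO libraries and 4.86, 0.0736, 0 and 4.99 CPM with T0901317, so the libraries with T0901317 overlapped those with DMSO although the gene was called. With GW3965 FBN3 read 4.18, 0, 2.74 and 4.91 CPM, with DMSO at 24 h 0.0491, 0, 4.49 and 5.30 CPM and with T0901317 at 24 h 0, 8.88, 0.0863 and 1.94 CPM, so that it was near 0 in some libraries of every group.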
